A study of Caenorhabditis elegans with 9 samples.

Results

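The comparison described here set Day 6 adult worms against worms at the L4 stage, the last larval stage of the nematode *Caenorhabditis elegans*. It rests on the 3 arrays labelled day 6 adults and the 3 arrays labelled L4 larvae, which are 6 of the 9 arrays of a study of gene expression during aging. All animals were of the wild type strain Bristol N2, and whole worms were collected. The Day 6 adults had been moved as L4 larvae to plates that held the *E. coli* strain OP50 and 0.05 mg/mL FUdR, a thymidylate synthase inhibitor used so that eggs do not hatch, and were kept at 20°C until day 6 of adulthood. The L4 larvae had grown on OP50 without FUdR, also at 20°C, and RNA was taken from them on reaching that stage. Each of the 3 biological replicates was a population grown up independently from starved L1 larvae and divided at the L4 stage into animals harvested at once and animals aged further. RNA (100 ng) was amplified and hybridized to Affymetrix *C. elegans* arrays, and levels are given on the log2 scale, on which a difference of 1 is a 2-fold difference. The last moult, the start of reproduction, 6 days of adult life and exposure to FUdR all lie between the groups and cannot be told apart.

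As background, a hermaphrodite in the L4 stage is building its adult cuticle and is making sperm, which it stores. After the last moult the germline switches to oocytes, the intestine makes yolk proteins that oocytes take up, and no further cuticle is shed. In the adult, the germline is the main tissue in which cells still divide. A whole-worm array adds up all tissues, so fewer cells of a type and less RNA per cell cannot be told apart in any result below.

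The array carried 22625 probe sets, of which 20766 named 1 gene, for 17118 genes in all. Of these, 11758 genes had a mean log2 level of at least 4 at 1 or more of the 3 ages and were tested. Array medians ran between 5.42 and 5.73. The Day 6 arrays resembled each other closely, with correlations across probe sets of 0.9947 to 0.9950. The L4 arrays were more variable, and L4 replicate 2 stood apart from the others. Replicates 1 and 3 correlated at 0.9861, whereas replicate 2 correlated at 0.9542 and 0.9687 with these. L4 replicate 2 also correlated more highly with the Day 6 arrays (0.8643 to 0.8765) than L4 replicate 1 (0.8250 to 0.8388) or replicate 3 (0.8196 to 0.8337). Its values are therefore given wherever single arrays are listed, and counts without it are given where they moved by more than 1.5 times.

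The stage labels were compared with known stage markers before other genes were examined. *sqt-1*, which encodes a cuticle collagen needed for body shape, read 3.46, 3.41 and 3.37 in the Day 6 arrays, against 12.74, 10.58 and 12.79 in the L4 arrays. *nos-2*, a maternal RNA for germ cell development, read 11.94, 12.08 and 11.93 in the Day 6 arrays, against 6.25, 10.33 and 7.71 in the L4 arrays. Both markers separated the stages, with L4 replicate 2 nearest to the adults for each. Genes used by neurons peculiar to males, such as the polycystin gene *pkd-2* (2.94 in Day 6 adults and 2.49 in L4 larvae on average) and *lov-1* (1.87 in Day 6 adults and 1.52 in L4 larvae), stayed below 4 in both groups. The yolk protein genes, which are known to switch on around the last moult, read high in both groups, with differences under 2-fold.

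Compared with L4 larvae, 3437 of the 11758 genes (29.2%) were higher in Day 6 adults and 2898 (24.6%) were lower, with a change of at least 2-fold and an adjusted p under 0.05 in limma. The remaining 5423 genes did not pass, among them 1633 with an adjusted p under 0.05 and a change below 2-fold. The median change over all genes tested was 0.17 on the log2 scale. Large changes were mostly decreases: 495 genes (4.21%) were higher by at least 10-fold, whereas 1049 (8.92%) were lower by at least 10-fold. The levels of the groups did not overlap for most genes, since 4654 genes (39.6%) read higher in every Day 6 array than in every L4 array and 3835 (32.6%) read lower. Without L4 replicate 2, 3585 genes were higher and 3182 were lower, and of these 3264 and 2826 were among the genes called with it. Among genes called higher, L4 replicate 2 lay on the Day 6 side of the mean of the other L4 arrays for 2231 of 3437 (64.9%), and among genes called lower for 1831 of 2898 (63.2%).

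**Figure D1:**
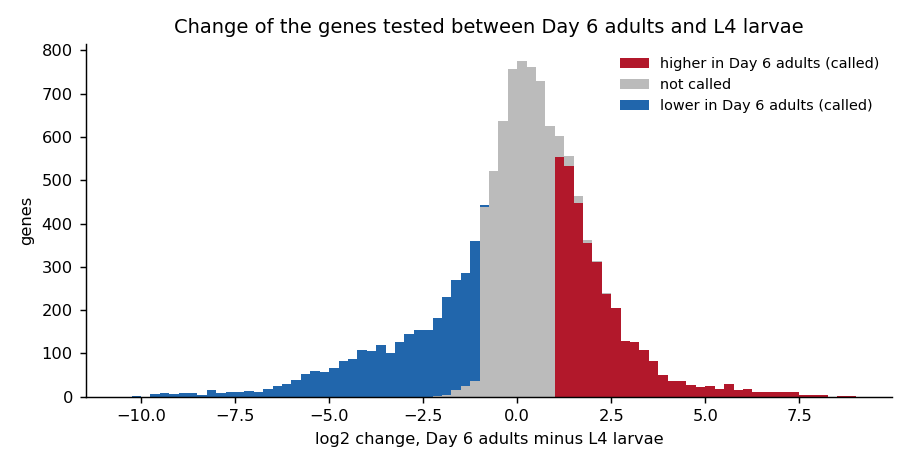
Histogram of the log2 change, Day 6 adults minus L4 larvae (horizontal axis), of the 11758 genes tested, with the number of genes on the vertical axis and colours for the genes called higher, not called and called lower. The 2898 genes called lower form a long tail that reaches -10.25, whereas the 3437 called higher lie mostly within a few log2 units of 0 and reach 8.80.

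The greatest increase was that of *clec-222*, which encodes a C-type lectin-like protein. It read 11.94, 11.93 and 11.87 in Day 6 arrays, against 3.04, 3.36 and 2.93 in L4 arrays. It changed by 8.80 (SE 0.16, adjusted p = 1.3e-08), which is at least 241-fold when levels under 4 are set to 4. *abf-2*, an antibacterial peptide of the ASABF family, read 12.27, 11.77 and 12.14 in Day 6 arrays and 3.87, 3.66 and 4.34 in L4 arrays. Neither gene had an L4 array near any Day 6 array. *abf-2* was higher by 8.10 (SE 0.22, adjusted p = 2.7e-08), or at least 247-fold. Increases of similar size were those of *ZK177.9* (8.69), *drd-10* (8.68), *F15E6.3* (8.07), the chitinase gene *cht-1* (8.02), the caveolin gene *cav-1* (7.89) and *dct-7* (7.87). The long noncoding RNA *tts-1* was higher by 7.68 and the saposin-like gene *spp-12* by 7.48. A pair of genes in this group depended on the L4 array read. *ule-1* was at 12.98, 12.76 and 12.79 in Day 6 adults, against 4.74, 8.08 and 2.55 in L4 larvae, and *C10G8.4* at 12.67, 12.57 and 12.65 in Day 6 adults, against 3.82, 8.39 and 2.50 in L4 larvae. L4 replicate 2 was the highest L4 array for both, though still below every Day 6 array.

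Of the 15 greatest decreases, those with a collagen name led. *col-120* read 2.78, 2.90 and 2.91 in Day 6 arrays and 13.35, 12.77 and 13.21 in L4 arrays. The change was -10.25 (SE 0.19, adjusted p = 1.3e-08), at least 553-fold lower, and the adult values lay at the low end of the array's range while the larval values lay near its top. *col-39* (-10.19), *col-49* (-9.70), *col-88* (-9.63) and *col-14* (-9.54) changed almost as much. Among genes without a collagen name, *H10E21.4* (-9.74), *gmap-3* (-9.56), *K01D12.9* (-9.54), *dbd-13* (-9.44) and *ZK180.5* (-9.34) stood with them.

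Most genes that act in oocytes and eggshells were higher in Day 6 adults. Of the 29 tested, 25 rose (86.2%, against 29.2% of all genes) and none fell, with a median change of 2.27, against 0.17 over all genes. The median level of the list was 11.38, 11.88 and 11.65 in the Day 6 arrays, against 8.44, 10.89 and 9.40 in the L4 arrays. Hence the 3 L4 populations differed widely among themselves, and replicate 2 came within 1 log2 unit of the lowest adult array. Without that array the same number of genes rose and the median change was 3.01. *nos-2*, whose levels are given above, was higher by 3.89 (SE 0.82, adjusted p = 0.00277). *puf-5*, an RNA-binding repressor of translation in oocytes, read 12.47, 12.61 and 12.68 in Day 6 adults, against 7.25, 11.01 and 8.92 in L4 larvae. *lin-41*, which is required for oocyte growth and identity and also acts in larval timing, read 8.88, 9.29 and 9.08 in Day 6 adults, against 4.25, 6.53 and 4.87 in L4 larvae. Both showed the same ordering of L4 arrays, with replicate 2 highest, and rose by 3.53 (adjusted p = 0.00286) and 3.87 (adjusted p = 1.5e-04).

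The yolk protein genes behaved differently from the oocyte genes. None of the 5 vitellogenin genes tested passed the 2-fold threshold in limma, with 2 at an unadjusted and 2 at an adjusted p under 0.05. Their changes ran from -0.25 to 0.58. *vit-2* read 13.77, 13.62 and 13.78 in Day 6 arrays, against 13.28, 13.21 and 12.94 in L4 arrays. The groups did not overlap, but the change was only 0.58 (SE 0.16, adjusted p = 0.0102). *vit-6* read 13.89, 13.83 and 13.95 in Day 6 arrays and 13.59, 13.50 and 13.40 in L4 arrays, a change of 0.39 (adjusted p = 0.0727). These levels were near the top of the measured range in both groups: array maxima lay between 14.11 and 14.37, and 4 to 7 probe sets read above *vit-6* in the Day 6 arrays, against 35 to 76 in the L4 arrays. *vit-1* read 11.39, 11.53 and 11.78 in Day 6 adults and 12.06, 12 and 11.39 in L4 larvae, with overlapping groups. It lay lower in the range, with 931 to 1383 probe sets above it in the Day 6 arrays and 751 to 1459 in the L4 arrays. The cause of the high yolk gene levels in L4 larvae was not tested. The vitellogenin genes resemble each other closely, and the probe sets of *vit-4* and *vit-5* are of a type that can match several of them, so the division of signal among them is uncertain.

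Within the germline, 12 of 27 genes for RNA regulators and P granules, the germline RNA granules, rose (44.4%, beside 29.2% of all genes) and none fell (median 0.80). *meg-1*, which helps P granules to gather in the embryonic germline lineage, read 11.09, 11.08 and 11.16 in Day 6 adults, against 3.80, 8.22 and 3.92 in L4 larvae. L4 replicate 2 was more than 4 log2 units above the other L4 arrays and still below all the adults. The change was 5.80 (SE 1.00, adjusted p = 8.5e-04), and 7.25 without that array. *glh-2*, a germline helicase of P granules, gave tighter larval values, with 9.09, 9.51 and 9.45 in Day 6 adults and 6.09, 6.27 and 6.49 in L4 larvae, and rose by 3.07 (adjusted p = 1.8e-06). *glp-1*, the Notch receptor that keeps germline stem cells dividing, rose by 2.75 (adjusted p = 3.4e-04). Genes for meiotic chromosomes gave 13 of 25 higher (52%, beside the same 29.2%) and none lower (median 1.08). Among them *zim-2*, a chromosome pairing protein, was up by 2.23 and the synaptonemal complex gene *syp-4* by 2.14. Without L4 replicate 2, the counts were 15 of 27 and 16 of 25, with medians of 1.26 and 1.47.

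DNA replication genes had the highest share of increases of any list examined. Of 28 tested, 25 rose (89.3%, against 29.2% of all genes) and none fell, with a median of 1.74. The median level was 10.93, 11.07 and 11.06 in the Day 6 arrays and 8.45, 10.32 and 9.13 in the L4 arrays, again with L4 replicate 2 closest to the adults. *mcm-4*, a subunit of the replicative helicase, read 10.70, 11 and 11.29 in Day 6 adults and 5.89, 9.24 and 7.62 in L4 larvae. It rose by 3.41 (SE 0.68, adjusted p = 0.00197). *pcn-1*, the sliding clamp of DNA polymerase, rose by 2.56 (adjusted p = 0.00625). *tyms-1* encodes thymidylate synthase, the enzyme that FUdR inhibits, and was singled out after its values were seen. It read 10.62, 10.90 and 10.74 in Day 6 adults, which were exposed to the drug, against 8.84, 8.59 and 8.35 in L4 larvae, which were not, and rose by 2.16 (adjusted p = 2.8e-05). Here L4 replicate 2 lay between the other L4 arrays.

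Cell cycle genes moved with them, with 19 of 27 higher and 1 lower (70.4% and 3.7%, beside 29.2% and 24.6% of all genes, median 1.55). *cdc-25.3*, one of the CDC25 phosphatases that start cell division, read 9.74, 10.27 and 9.75 in Day 6 adults, against 3.16, 6.52 and 3.17 in L4 larvae, and rose by 5.64 (adjusted p = 2.4e-04). The mitotic cyclin gene *cyb-3* rose by 3.30 (adjusted p = 0.00313) and the cyclin E gene *cye-1* by 3.22 (adjusted p = 7.2e-04). The exception was another phosphatase of the same family. *cdc-25.4* read 5.19, 4.17 and 4.71 in Day 6 adults and 9.30, 9.76 and 10.21 in L4 larvae, and fell by 5.07 on the log2 scale (adjusted p = 2.9e-06). Members of 1 family thus lay on opposite sides. Of 23 histone genes, 6 rose and 2 fell (26.1% and 8.7%, beside 29.2% and 24.6% of all genes). The greatest increase in the list was that of *his-61* (1.44), whereas *his-71* and *his-70*, which encode H3.3-type histones, fell by 2.86 and 4.46 on the log2 scale. The linker histone gene *hil-1*, which was not in this list, rose by 4.58. Many histone genes are near-identical, so single histone values are uncertain.

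Sperm genes gave the opposite picture. All 23 major sperm protein genes tested fell (100%, against 24.6% of all genes), with a median of -2.45. The median of the list was 10.38, 9.44 and 10.21 in the Day 6 arrays, against 12.25, 12.69 and 12.65 in the L4 arrays, so that L4 replicate 2 was as high as the other L4 arrays or higher. *msp-50* read 8.0, 7.23 and 7.51 in Day 6 adults and 11.59, 12.37 and 11.99 in L4 larvae. It fell by 4.40 on the log2 scale (SE 0.27, adjusted p = 1.8e-06), the greatest decrease among them, and the smallest was -1.28. Major sperm proteins form the cytoskeleton of the crawling sperm, and their genes are near-identical copies, so these 23 values overlap in what they measure. Of the 23 genes, 1 was read by a probe set that matches a single transcript, *msp-32*, and it fell by 3.72 on the log2 scale. Small sperm genes, which have ssp, ssq, sss or nspd names, showed larger decreases: 18 of 19 fell, 15 of these by at least 10-fold, with a median of -4.0. *ssp-33* read 6.20, 4.41 and 5.75 in Day 6 adults and 11.30, 12.58 and 11.90 in L4 larvae, and fell by 6.47 on the log2 scale (adjusted p = 8.0e-06).

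Genes for sperm formation and fertilization were mixed, with 20 of 34 lower and 6 higher (58.8% and 17.6%, beside 24.6% and 29.2% of all genes, median -2.03). *spe-46*, which is needed for sperm development, read 3.89, 3.59 and 3.68 in Day 6 adults against 8.95, 10.41 and 10.21 in L4 larvae. It fell by 6.14 on the log2 scale (SE 0.41, adjusted p = 3.0e-06), at least 57.9-fold. *spe-27*, a gene for sperm activation (-4.91), and *spe-10*, which acts in sperm organelles (-4.81), fell with it. The members that rose include regulators that act earlier. *fog-1*, an RNA-binding protein that directs germ cells to become sperm, read 10.41, 10.95 and 10.83 in Day 6 adults and 5.86, 7.26 and 6.01 in L4 larvae, and rose by 4.35 (SE 0.35, adjusted p = 9.4e-06). *cpb-1*, a related RNA-binding protein needed in spermatocytes, rose by 3.13 (adjusted p = 0.00743). Its L4 arrays read 3.63, 7.53 and 5.90, a spread wider than the change, and the call was lost in the t-test that the study's methods name.

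Genes listed as first read from the embryo's own genome were mostly not detected. Of 14 on the array only 5 passed the filter on level, and markers such as *end-1* (2.95 in Day 6 adults and 2.29 in L4 larvae), *med-1* (1.75 in Day 6 adults and 1.81 in L4 larvae) and *tbx-37* (1.81 in Day 6 adults and 1.78 in L4 larvae) stayed below 4. The log2 of the summed signal of those that passed ran from 10.56 to 10.92 in the Day 6 arrays and from 9.23 to 10.02 in the L4 arrays. Of these, *tbx-9* (3.57), *pes-1* (2.25) and *pal-1* (1.64) were higher, whereas *nob-1* (-2.48) and *elt-1* (-1.93) were lower. With levels under 4 set to 4, *pes-1* changed by 0.46 and lost its call. What embryos held inside the adults contribute to the oocyte and germline results was not tested.

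**Figure D2:**
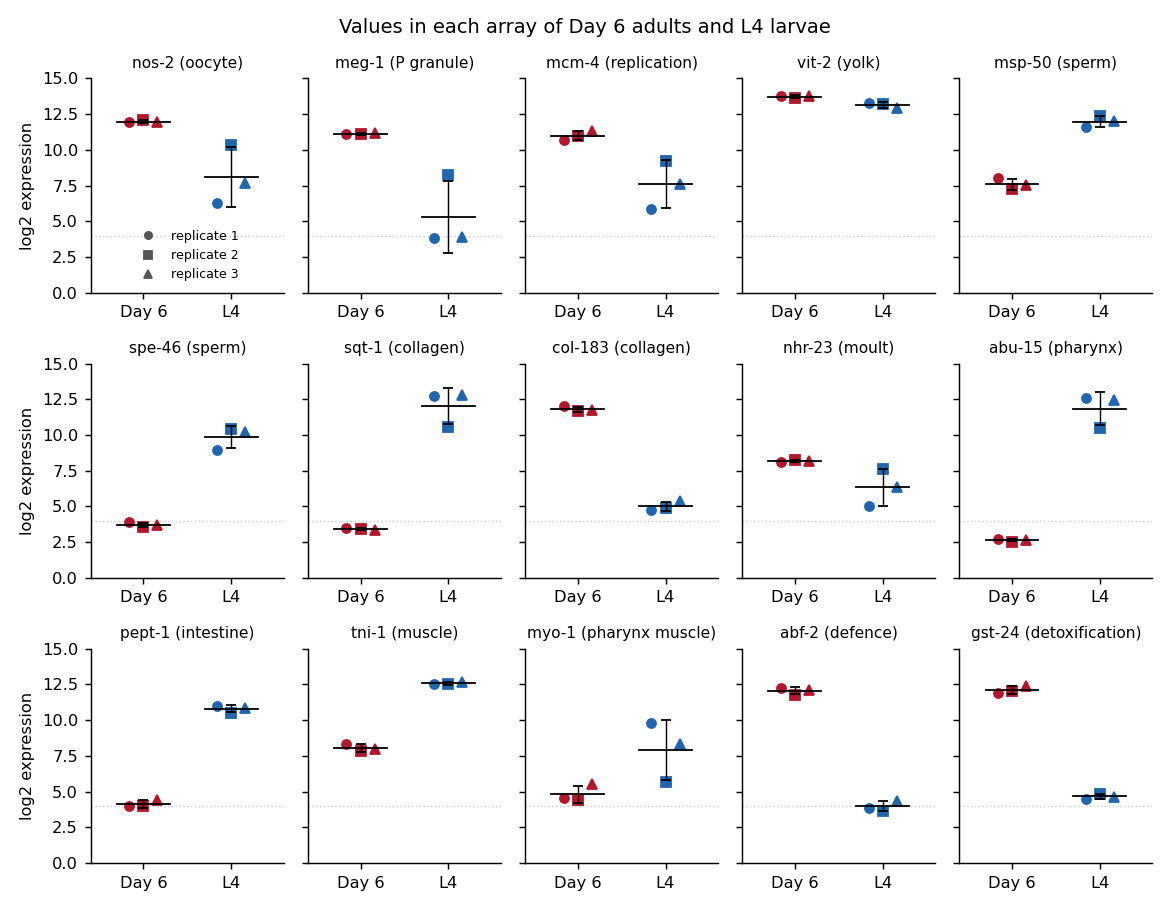
Log2 level of 15 genes in the 3 Day 6 arrays (left in each panel) and the 3 L4 arrays (right), with symbols for replicates 1, 2 and 3, bars for the mean ± SD, and a dotted line at 4, the level used as the filter. In *nos-2*, *meg-1*, *mcm-4* and *nhr-23* the L4 replicate 2 square lies well above the other L4 arrays, whereas in *vit-2* all 6 values lie between 12.94 and 13.78 and in *tni-1* and *gst-24* the replicates are tight.

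The cuticle was the site of the deepest decreases. Of 128 collagen genes with col names on the array, 100 passed the filter. Of these 75 fell (75%, against 24.6% of all genes), 59 of them by at least 10-fold, 8 rose and 17 did not pass. The median change was -4.39, and -4.08 with levels under 4 set to 4. Median levels were 4.67, 4.31 and 4.36 in the Day 6 arrays, against 11.70, 11.43 and 11.48 in the L4 arrays, with no gap between L4 replicate 2 and the other L4 arrays. Cuticle collagens are secreted by the epidermis and cross-linked into the worm's outer coat, and a fresh set is made for each moult. Many are close relatives, and genes read by probe sets that match several copies are uncertain one by one.

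The 8 that rose show that the family did not move as a whole. *col-183* read 12, 11.67 and 11.72 in Day 6 adults and 4.78, 4.86 and 5.38 in L4 larvae. It rose by 6.79 (SE 0.23, adjusted p = 8.2e-08), or 111-fold. *col-143* read 13.07, 13.04 and 13.38 in Day 6 adults and 5.26, 10.53 and 4.57 in L4 larvae, and rose by 6.38 (SE 1.29, adjusted p = 0.00218), with L4 replicate 2 more than 5 log2 units above the other L4 arrays. Collagens known by the body shape of their mutants behaved like the col genes. Of 18 tested, 14 were lower and 2 higher (77.8% and 11.1%, beside 24.6% and 29.2% of all genes, median -2.98). *dpy-5* read 3.75, 3.72 and 3.65 in Day 6 adults against 13.05, 11.70 and 13.41 in L4 larvae, and fell by 9.01 on the log2 scale (adjusted p = 3.2e-07). *sqt-1* (-8.62), *rol-6* (-7.95) and *rol-8* (-7.53) followed it. The pair that rose were *dpy-17* (3.41) and *dpy-14* (3.79). *dpy-17* read 8.33, 7.55 and 8.07 in Day 6 adults and 4.49, 4.92 and 4.32 in L4 larvae. For this list, the median level in L4 replicate 2 was 8.29, against 10.64 and 10.74 in the other L4 arrays.

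Cuticlins, the insoluble proteins of the cuticle, passed the filter for 16 of 34 genes. Of these 7 fell and 3 rose (43.8% and 18.8%, beside 24.6% and 29.2% of all genes). The list's median of -1.26 was -0.34 with levels under 4 set to 4, and *cut-6* and *cutl-10* then lost their calls as higher. *cut-2* fell by 8.35 on the log2 scale (adjusted p = 1.5e-06), at least 170-fold. Factors needed for moulting gave 9 of 17 lower and 3 higher (52.9% and 17.6%, beside the same shares of all genes, median -1.03). *bli-5*, a protease inhibitor of the cuticle, read 4.08, 4.20 and 4.39 in Day 6 adults against 11.65, 10.30 and 11.60 in L4 larvae, and fell by 6.96 on the log2 scale (adjusted p = 6.1e-07). The larval values exceeded the adult values by far in every array. *mlt-8*, a moulting gene (-6.24), *acn-1*, a relative of angiotensin-converting enzyme without the catalytic residues (-4.35), and *nas-36*, an astacin protease that helps to free the old cuticle (-4.71), also fell. The groups did not overlap for any of these 4 genes.

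The nuclear receptor gene *nhr-23*, which drives the gene programme of each moult, did not fall with the moulting genes. It read 8.13, 8.25 and 8.17 in Day 6 adults and 5.05, 7.65 and 6.36 in L4 larvae, and rose by 1.83 (SE 0.53, adjusted p = 0.0133). The L4 arrays differed among themselves by more than this change, with replicate 2 almost at the adult level. *fbn-1*, a fibrillin-like protein of the extracellular matrix, rose by 2.24 (adjusted p = 4.0e-04). Enzymes that process collagen gave 8 of 18 lower and 3 higher (44.4% and 16.7%, beside 24.6% and 29.2% of all genes). Among them *fkb-4*, a peptidyl-prolyl isomerase, fell by 6.39 on the log2 scale and *mlt-7*, a peroxidase, by 2.89.

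Families of secreted and membrane proteins linked to the epidermis also had many members that fell. Hedgehog-related genes of the worm, which act in moulting rather than in classical Hedgehog signalling, passed the filter for 35 of 54. Of these 24 fell and 4 rose (68.6% and 11.4%, beside 24.6% and 29.2% of all genes, median -2.52). *grl-16* read 3.61, 3.50 and 3.58 in Day 6 adults against 12.98, 11.36 and 13.36 in L4 larvae (-9.0, adjusted p = 6.2e-07). *wrt-4* read 2.04, 2.16 and 2.14 in Day 6 adults against 11.59, 8.62 and 12.02 in L4 larvae (-8.63, adjusted p = 1.3e-05). For both, L4 replicate 2 was the lowest L4 array and remained far above the adults. The related patched family was divided, with 9 of 20 lower and 6 higher (45% and 30%, beside the same shares of all genes). Without L4 replicate 2 the counts were 12 and 6. *ptr-18* illustrates that array, with 1.92, 1.87 and 1.94 in Day 6 adults and 8.03, 4.02 and 7.92 in L4 larvae. Astacin metalloproteases gave 15 of 25 lower and 6 higher (60% and 24%, beside the same shares of all genes), with *nas-27* down by 6.73 on the log2 scale.

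**Figure D3:**
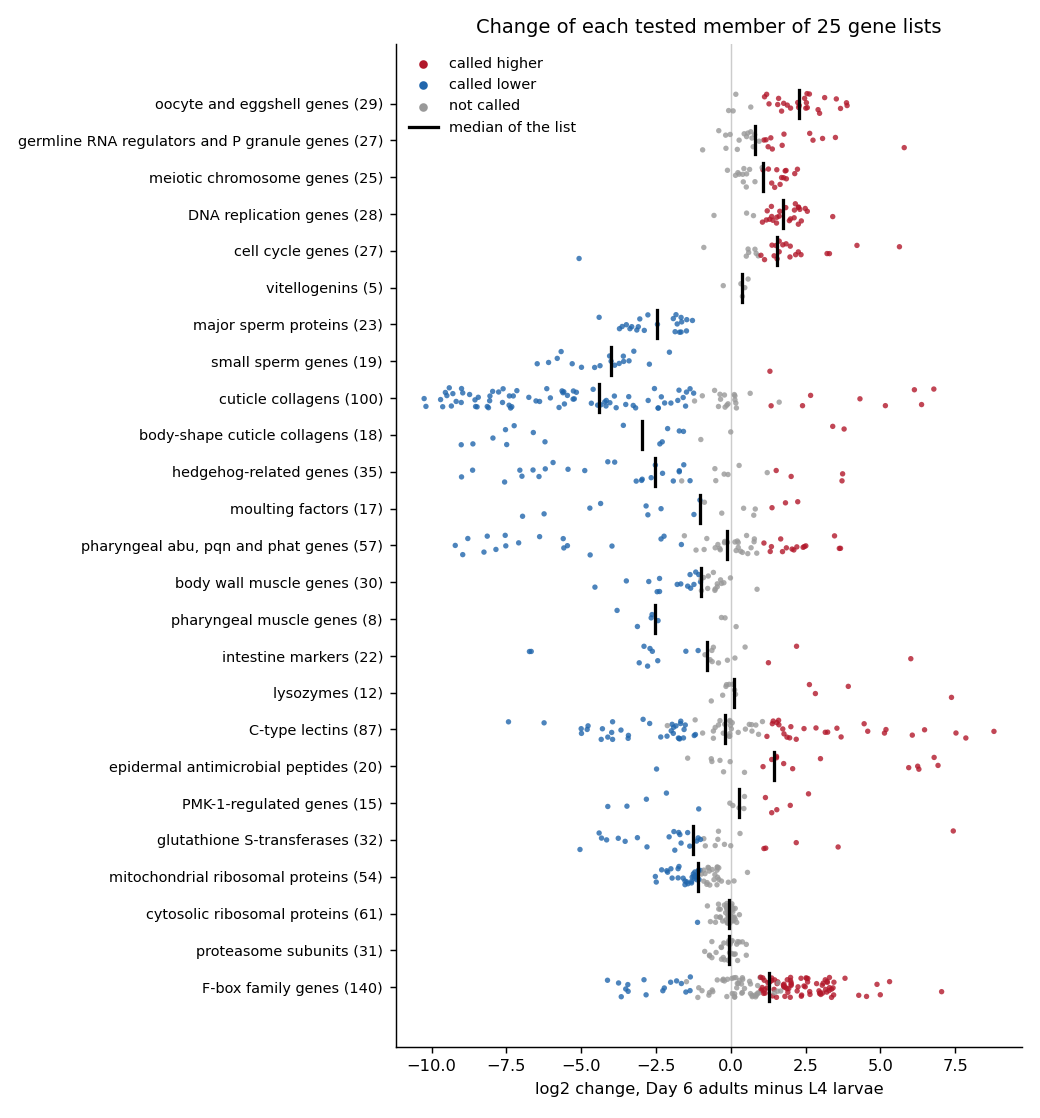
Log2 change, Day 6 adults minus L4 larvae, of every tested member of 25 gene lists (1 point per gene, bar at the list's median, line at 0 for no change). Oocyte and replication genes lie to the right of 0 with medians of 2.27 and 1.74, whereas collagens and small sperm genes lie to the left with medians of -4.39 and -4.0, and vitellogenins and proteasome subunits sit close to 0.

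The pharynx, the muscular feeding organ, is lined with cuticle of its own. Of 57 tested genes of the abu, pqn and phat families, many of which encode glutamine-rich or cysteine-rich proteins of that lining, 18 fell, 15 of them by at least 10-fold, and 15 rose, which left a median of -0.11. These shares were 31.6% lower and 26.3% higher, beside 24.6% and 29.2% of all genes. The list therefore holds members with deep decreases beside members with increases. *abu-15* read 2.71, 2.54 and 2.66 in Day 6 adults and 12.58, 10.52 and 12.45 in L4 larvae. It fell by 9.21 on the log2 scale (SE 0.47, adjusted p = 8.1e-07), at least 231-fold, and *abu-11* fell by 8.25. Of 8 genes for pharyngeal muscle, 5 fell (62.5%, beside 24.6% of all genes) and none rose (median -2.53). The median level of that list was 5.94, 5.62 and 6.23 in the Day 6 arrays, against 8.39, 5.62 and 7.18 in the L4 arrays, so that L4 replicate 2 read like an adult array here. *myo-1*, a pharyngeal myosin heavy chain, read 4.55, 4.40 and 5.51 in Day 6 adults and 9.81, 5.67 and 8.35 in L4 larvae, and fell by 3.12 on the log2 scale (SE 0.88, adjusted p = 0.012). The lowest L4 value, in replicate 2, exceeded the highest adult value only slightly. Another pharyngeal myosin, *myo-2* (-2.66), and the troponin genes *tnt-4* (-3.80) and *tnc-2* (-2.63) fell too, whereas the myosin *myo-5* was not called (-0.31, adjusted p = 0.721).

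Body wall muscle genes fell or were not called, without the scatter among L4 arrays. Of 30 tested, 15 fell (50%, beside 24.6% of all genes) and none rose, with a median of -1.0. When probe sets that can match several transcripts were left out, 5 of 16 fell, none rose and the median was -0.86. List medians were 9.82, 9.75 and 10.12 in the Day 6 arrays, against 11.61, 11.64 and 11.80 in the L4 arrays. *tni-1*, a troponin I, read 8.34, 7.81 and 7.98 in Day 6 adults and 12.55, 12.51 and 12.68 in L4 larvae. It fell by 4.54 on the log2 scale (SE 0.20, adjusted p = 3.1e-07), or 23.2-fold. *unc-52*, the perlecan to which muscle attaches, read 7.18, 7.11 and 7.53 in Day 6 adults against 10.34, 10.78 and 11.18 in L4 larvae, a change of -3.49 (adjusted p = 3.2e-06). On another probe set, not of the kind that can match several transcripts, *unc-52* changed by -1.04 and was not called. *tnt-2*, a troponin T, and *dim-1*, a muscle protein with immunoglobulin repeats, fell by 2.74 and 2.46 on the log2 scale. The adult and larval arrays were separated in each of these 4 genes by several times the spread within either group.

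Intestinal genes moved in both directions. Of 22 markers, 10 fell and 3 rose (45.5% and 13.6%, beside 24.6% and 29.2% of all genes, median -0.78). *pept-1*, the intestinal peptide transporter, read 3.97, 4.0 and 4.41 in Day 6 adults against 11.02, 10.51 and 10.87 in L4 larvae. The change was -6.67 (SE 0.21, adjusted p = 7.0e-08), at least 101-fold. *pho-1*, an intestinal acid phosphatase, fell by 6.73 on the log2 scale (adjusted p = 3.8e-07) and *nhx-2*, a sodium-proton exchanger that works with the peptide transporter, by 2.90 (adjusted p = 3.4e-05). In contrast, *ftn-1*, an iron-storing ferritin of the intestine, read 11.68, 11.47 and 11.04 in Day 6 adults and 7.06, 3.86 and 5.20 in L4 larvae, and rose by 6.02 (adjusted p = 6.0e-05). Together with the high vitellogenin levels, which are also made in the intestine, these genes did not share a direction. Of 19 vacuolar proton pump genes, 7 fell and 1 rose (36.8% and 5.26%, beside 24.6% and 29.2% of all genes). *vha-19* changed by -1.64 and *vha-7* by 2.60.

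Host defence genes, on which the study centred, changed in both directions. Among 12 lysozyme genes tested, 4 rose (33.3%, a share near the 29.2% of all genes) and none fell. *ilys-3*, an invertebrate-type lysozyme, read 10.39, 10.65 and 10.27 in Day 6 adults against 3.88, 2.39 and 2.91 in L4 larvae. It rose by 7.38 (SE 0.34, adjusted p = 4.2e-07), at least 86.6-fold. *lys-7* read 13.30, 13.31 and 13.32 in Day 6 adults and 10.65, 10.61 and 10.77 in L4 larvae, and rose by 2.63 (adjusted p = 1.3e-06). The other 2 were *ilys-2* (3.93) and *lys-6* (2.83), and the other lysozymes, among them *lys-1* (-0.14), *lys-2* (0.07) and *lys-8* (0.16), had no called change.

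C-type lectin genes, a large family with many members induced by infection, passed the filter for 87 of 220. Of these 27 rose and 34 fell, shares of 31% and 39.1% beside 29.2% and 24.6% of all genes, with a median of -0.20 that turned to 0.15 when arrays were centred on their medians. With probe sets that can match several transcripts left out, 15 of 65 rose, 30 fell and the median was -0.60. The range was the widest of any defence family. At 1 end stood *clec-222*, described above. At the other stood *clec-230*, with 2.25, 2.2 and 2.1 in Day 6 adults and 10.86, 7.38 and 10.59 in L4 larvae (-7.43, adjusted p = 4.2e-05). *clec-66* fell by 6.24 on the log2 scale. Saposin-like and ABF peptides gave 7 of 18 higher and 2 lower (38.9% and 11.1%, beside 29.2% and 24.6% of all genes).

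Antimicrobial peptides made by the epidermis were mostly higher. Of 20 tested, 12 rose and 1 fell (60% and 5%, beside 29.2% and 24.6% of all genes, median 1.45). Without L4 replicate 2, 11 rose and 3 fell. *cnc-7*, of the caenacin family, read 12.57, 12.43 and 12.37 in Day 6 adults against 5.25, 4.95 and 6.77 in L4 larvae. It rose by 6.80 (SE 0.41, adjusted p = 1.8e-06), or 111-fold. *fipr-26* (6.93) and *cnc-6* (6.25) rose as far, whereas *nlp-25* fell by 2.48 on the log2 scale (adjusted p = 4.0e-04). Peptides of this class share sequence, and the probe sets of *cnc-7* and *fipr-26* can match more than 1 gene. With such probe sets left out only 5 of the 20 could be tested, of which 2 rose and 1 fell, with a median of -0.24.

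Genes known to depend on the p38 kinase PMK-1, which governs intestinal immunity, changed in both directions. Of 15, 5 rose and 5 fell (33.3% each, beside 29.2% and 24.6% of all genes), with a median of 0.28, and without L4 replicate 2 the counts were 3 higher and 5 lower. The paper took its PMK-1 targets from an earlier study. The members of the list used here were chosen with earlier results of these data known, so their direction is not independent evidence. *sysm-1* (*T24B8.5*), a small secreted peptide used as a reporter of the pathway, read 11.43, 11.43 and 11.23 in Day 6 adults against 8.27, 8.84 and 9.18 in L4 larvae. It rose by 2.60 (SE 0.24, adjusted p = 2.3e-05). *C17H12.8* read 12.48, 12.24 and 12.51 in Day 6 adults and 12.26, 12.22 and 11.90 in L4 larvae, with overlapping groups and a change of 0.28 (adjusted p = 0.375). *dod-24* (-4.11), *irg-8* (-3.47) and *irg-4* (-2.82) fell. *spl-2* passed narrowly (1.16, adjusted p = 0.0488) and lost its call under 9 alternative settings.

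With the main probe sets, the components of the pathway itself mostly did not pass (median 0.68). When probe sets that can match several transcripts were left out, 3 of 6 were called higher and none lower (median 0.91). *pmk-1* read 8.51, 8.42 and 8.42 in Day 6 adults and 8.54, 7.12 and 7.34 in L4 larvae, where replicate 1 equalled the adults. The change was 0.78 (SE 0.33, adjusted p = 0.0608). *sek-1*, the kinase above PMK-1, changed by -0.07 (adjusted p = 0.811) on the probe set with the higher level, which can match more than 1 transcript, and by 1.29, called higher, on its other probe set. The transcription factor gene *atf-7* changed by 0.21 (adjusted p = 0.306). *tir-1*, the adaptor at the top of the pathway, was the only 1 of 7 members called with the main probe sets: it read 10.84, 10.65 and 10.69 in Day 6 adults and 9.11, 8.29 and 8.05 in L4 larvae, and rose by 2.24 (adjusted p = 1.1e-04).

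**Figure D4:**
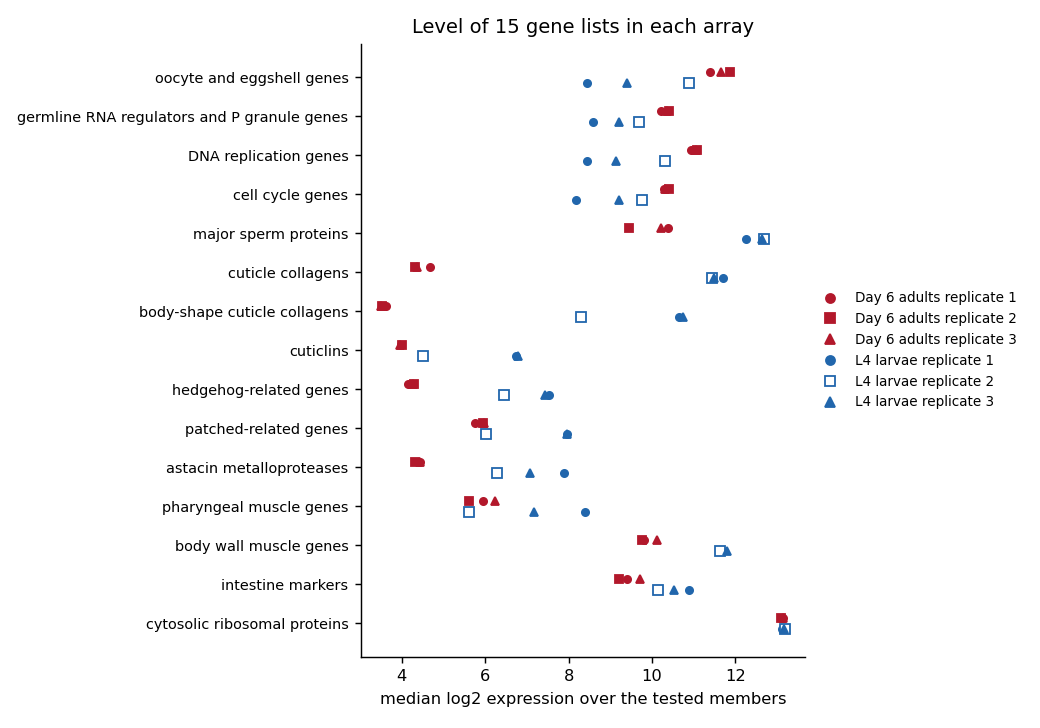
Median log2 level of 15 gene lists in each of the 3 Day 6 arrays and the 3 L4 arrays, with L4 replicate 2 as an open square. For DNA replication genes that array lies at 10.32, against 8.45 and 9.13 in the other L4 arrays, and for body-shape collagens at 8.29, against 10.64 and 10.74, while for body wall muscle the 3 L4 arrays lie together, between 11.61 and 11.80.

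Core genes of the insulin pathway, which limits lifespan by restraining the transcription factor DAF-16, were higher or not called. Of 13 tested, 6 rose (46.2%, beside 29.2% of all genes) and none fell (median 0.86). *daf-2*, the receptor, read 6.69, 6.55 and 6.50 in Day 6 adults against 4.18, 3.54 and 3.26 in L4 larvae. It rose by 2.92 (SE 0.26, adjusted p = 1.8e-05). The kinase gene *pdk-1* rose by 2.68, *aap-1* by 2.52, and the kinase genes *akt-1* and *age-1* by 1.64 and 1.61. *daf-16* itself changed by 0.39 (adjusted p = 0.0438), below 2-fold. The receptor and several kinases of the pathway thus rose together. When probe sets that can match several transcripts were left out, 7 of the 13 genes could be tested and 1 rose.

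Genes that DAF-16 is known to activate gave 9 of 19 higher and 1 lower (47.4% and 5.26%, beside 29.2% and 24.6% of all genes). Their median was 1.14, but 0.67 with levels under 4 set to 4, and 0.52 without L4 replicate 2. *fat-5*, a palmitoyl-CoA desaturase, read 12.17, 11.81 and 12.32 in Day 6 adults against 4.82, 4.32 and 4.76 in L4 larvae, and rose by 7.47 (SE 0.25, adjusted p = 8.2e-08), or 177-fold. *mtl-1*, a metallothionein, rose by 3.24 and *sod-3*, a mitochondrial superoxide dismutase, by 2.17 (adjusted p = 2.6e-05). The exception was the glycerol channel gene *aqp-1*, which fell by 5.04 on the log2 scale. Of 6 dod genes that DAF-16 represses, 3 fell (50%, beside 24.6% of all genes) and 1 rose (16.7%, beside 29.2%). The 1 that rose was *dod-23* (2.70, adjusted p = 3.6e-05), and 2 rose without L4 replicate 2. The list's median of -2.03 was -0.01 when probe sets that can match several transcripts were left out. *dod-17* was at 2.69, 2.79 and 3.08 in Day 6 adults and 10.62, 10.52 and 10.39 in L4 larvae (-7.66, adjusted p = 1.6e-08).

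Stress genes showed no common direction. Among 12 small heat shock protein genes 4 rose and 3 fell (33.3% and 25%, beside 29.2% and 24.6% of all genes). With levels under 4 set to 4, *hsp-12.6* and *hsp-16.20* lost their calls as higher, and the list's median went from 0.44 to 0.00. Among 50 chaperone genes 6 rose and 5 fell, 12% and 10% beside the same shares of all genes. *hsp-16.2* read 9.32, 8.09 and 7.81 in Day 6 adults and 9.82, 6.03 and 5.95 in L4 larvae. Replicate 1 was the highest of its group at both ages, and the change of 1.14 (SE 0.96, adjusted p = 0.313) lay within the spread. *hsp-60*, the mitochondrial chaperonin, read 8.65, 8.20 and 7.21 in Day 6 adults against 11.47, 11.42 and 11.03 in L4 larvae, and fell by 3.29 on the log2 scale (adjusted p = 4.8e-05). *hsp-12.1* fell by 4.18. Of 17 antioxidant enzyme genes 6 rose and 2 fell (35.3% and 11.8%, beside 29.2% and 24.6% of all genes), and without L4 replicate 2 these counts were 4 and 1. Among those that rose was *trx-1*, a thioredoxin of sensory neurons (3.31).

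Enzymes that modify foreign and internal small molecules held members that rose and members that fell in each class. Cytochrome P450 genes gave 22 of 49 higher and 7 lower (44.9% and 14.3%, beside 29.2% and 24.6% of all genes, median 0.64). Without L4 replicate 2, however, the counts were 21 and 11 with a median of 0.18. Glutathione S-transferase genes gave 19 of 32 lower and 5 higher (59.4% and 15.6%, beside 24.6% and 29.2% of all genes, median -1.26). Glucuronosyltransferase genes gave 22 of 53 lower and 11 higher (41.5% and 20.8%, beside the same shares, median -0.46). *gst-24* was an exception in its class. It read 11.89, 12.02 and 12.39 in Day 6 adults and 4.50, 4.83 and 4.65 in L4 larvae, and rose by 7.44 (SE 0.19, adjusted p = 2.2e-08), or 174-fold, whereas *gst-28* (-5.04) and *gst-6* (-4.40) fell. *cyp-29A4* rose by 6.60 and *ugt-14* by 6.18, while *ugt-15* (-5.07) and *cyp-35A5* (-3.03) fell.

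The lists of lipid genes each held members that fell and members that rose. Of 19 genes for fatty acid synthesis, desaturation and elongation, 8 fell and 1 rose, *fat-5* (42.1% and 5.26%, beside 24.6% and 29.2% of all genes). Without L4 replicate 2, 2 rose, and with arrays centred on their medians 3 rose. *fat-7*, a stearoyl-CoA desaturase, read 6.11, 6.57 and 7.55 in Day 6 adults against 10.29, 9.94 and 10.30 in L4 larvae, and fell by 3.43 on the log2 scale (adjusted p = 3.0e-05). Desaturases of the same family therefore moved in opposite directions. *elo-2*, a fatty acid elongase, fell by 3.20. Of 58 genes for fatty acid breakdown, 24 fell and 10 rose (41.4% and 17.2%, beside the same shares of all genes). Of 6 lysosomal lipase genes 2 fell and 3 rose (33.3% and 50%). With levels under 4 set to 4, the lipase genes *lipl-3* and *lipl-4* lost their calls as higher. *acdh-1*, an acyl-CoA dehydrogenase, read 6.16, 8.38 and 7.88 in Day 6 adults and 13.19, 12.92 and 13.09 in L4 larvae, a change of -5.59 (SE 0.49, adjusted p = 1.5e-05), and *acdh-8* fell by 6.06. *acdh-6* read 2.60, 2.68 and 2.76 in Day 6 adults against 10.13, 5.07 and 9.99 in L4 larvae. L4 replicate 2 thus lay between the other L4 arrays and the adults, nearer to the adults. *lbp-7*, an intracellular lipid-binding protein, fell by 3.71.

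Several lists of mitochondrial genes held members that fell and none that rose. Of 54 genes for mitochondrial ribosomal proteins, 30 fell (55.6%) and none rose, with a median of -1.08 and no change beyond 10-fold. The list's median level was 9.79, 9.80 and 9.69 in the Day 6 arrays, against 11, 11.09 and 10.91 in the L4 arrays. *mrpl-12* read 9.75, 9.50 and 9.37 in Day 6 adults and 11.97, 12.12 and 12.09 in L4 larvae, and fell by 2.52 on the log2 scale (adjusted p = 4.2e-06). Respiratory chain genes of the nuclear genome gave 12 of 43 lower and none higher (27.9% lower, beside 24.6% of all genes, median -0.66), led by *asb-2*, a subunit of ATP synthase, at -2.41. Citric acid and glyoxylate cycle genes gave 7 of 24 lower and none higher (29.2% lower, beside the same 24.6%, median -0.58). When each array was centred on its median, 22 of the 54 mitochondrial ribosomal genes fell and their median was -0.89, and the counts were 8 of 43 for the respiratory chain and 4 of 24 for the citric acid cycle.

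By contrast, genes for cytosolic ribosomes and the proteasome gave almost no calls. Of 61 cytosolic ribosomal protein genes 1 fell and none rose, with a median of -0.05, and list medians were 13.15, 13.10 and 13.14 in the Day 6 arrays against 13.12, 13.18 and 13.16 in the L4 arrays. The 1 that fell was *rpl-41.1* (-1.11, adjusted p = 8.0e-04), and without L4 replicate 2 its change of -0.97 was below 2-fold. None of 31 proteasome subunit genes passed both thresholds in limma (median -0.06). With changes below 2-fold, 9 had an unadjusted p under 0.05 and 8 an adjusted p under 0.05. With arrays centred on their medians these list medians turned to 0.14 and 0.13, with no member called in either list. Among 8 genes often used as reference genes, *pmp-3* rose by 1.36 and *eif-3.C* fell by 1.01 on the log2 scale, a call lost under 7 alternative settings, and 3 rose without L4 replicate 2. The tubulin gene *tba-1* changed by 0.42 (adjusted p = 0.0594).

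In the nervous system, 1 of 19 genes for transmission rose and 3 fell (5.26% and 15.8%, beside 29.2% and 24.6% of all genes). Without L4 replicate 2, 1 rose and 5 fell. The synaptic vesicle gene *rab-3* fell by 1.24 on the log2 scale. The log2 of the summed signal of this list ran from 13.57 to 13.66 in the Day 6 arrays and from 13.54 to 13.62 in the L4 arrays. *tdc-1*, tyrosine decarboxylase, was the member called higher (1.91, adjusted p = 0.0217), although its groups overlapped and the call was lost under 8 alternative settings. It read 10.43, 11.40 and 11.03 in Day 6 adults and 7.74, 10.56 and 8.82 in L4 larvae. It is also made in the gonad sheath and uterine cells. Neuropeptide and insulin-like peptide genes gave 24 of 82 lower and 9 higher (29.3% and 11%, beside 24.6% and 29.2% of all genes, median -0.66). *nlp-39* read 9.60, 9.09 and 9.63 in Day 6 adults and 2.24, 2.42 and 1.92 in L4 larvae, and rose by 7.25 (adjusted p = 2.7e-07), at least 43.4-fold.

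The tubulins of touch receptor neurons fell. *mec-7*, the beta-tubulin of their microtubules, read 6.22, 6.47 and 6.69 in Day 6 adults against 10.67, 9.98 and 10.50 in L4 larvae, and fell by 3.92 on the log2 scale (adjusted p = 1.5e-06). Its alpha-tubulin partner *mec-12* fell by 3.55 (adjusted p = 6.9e-06). Another beta-tubulin, *tbb-6*, rose by 5.09. Chemoreceptor genes, which number 1276 on the array and are each used in few cells, passed the filter in only 26 cases. Of these 9 rose and 8 fell (34.6% and 30.8%, beside 29.2% and 24.6% of all genes), and the rest of the family was too low for a comparison.

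Regulators of development moved in both directions. *lin-42*, the worm's period homologue, whose level cycles with the larval moults, read 3.73, 3.22 and 3.48 in Day 6 adults against 5.90, 5.67 and 6.29 in L4 larvae, and fell by 2.48 on the log2 scale (adjusted p = 2.1e-05). *egl-17*, a fibroblast growth factor of the vulval lineage, fell by 2.56. *hlh-2*, a basic helix-loop-helix partner used in the gonad and vulva, read 7.67, 8.30 and 7.43 in Day 6 adults and 3.21, 3.84 and 3.49 in L4 larvae, and rose by 4.29 (adjusted p = 1.8e-06). Of 19 vulva and gonad genes 8 rose and 2 fell (42.1% and 10.5%, beside 29.2% and 24.6% of all genes), and 7 rose and 5 fell without L4 replicate 2.

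F-box genes encode adaptors that bring proteins to ubiquitin ligases, and of 310 on the array 140 passed the filter. Of these 77 rose and 16 fell (55% and 11.4%, beside 29.2% and 24.6% of all genes). The median was 1.28, and 0.55 with levels under 4 set to 4. *fbxa-163* read 9.71, 9.82 and 10.28 in Day 6 adults and 2.71, 2.84 and 3.10 in L4 larvae, and rose by 7.05 (SE 0.22, adjusted p = 5.9e-08), at least 61.3-fold. Of 145 nuclear hormone receptor genes, 27 rose (18.6%, beside 29.2% of all genes) and 16 fell (11%, beside 24.6%). Among them *nhr-2*, an embryonic receptor, rose by 3.83 and *nhr-68*, which acts in propionate metabolism, fell by 2.72 on the log2 scale. Transthyretin-related genes gave 12 of 38 higher and 8 lower, shares near those of all genes.

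The Day 15 arrays of the same study give the later course of the lists, as levels only. The median level of the major sperm proteins was 12.47 in L4 larvae, 10.01 in Day 6 adults and 11.79 in Day 15 adults, and that of small sperm genes 10.50 in L4 larvae, 5.45 in Day 6 adults and 9.27 in Day 15 adults. Sperm genes were therefore lowest at Day 6 among the 3 ages. Collagens with col names had medians of 11.09 in L4 larvae, 4.42 in Day 6 adults and 4.03 in Day 15 adults. Body wall muscle genes had medians of 11.64, 9.86 and 8.49 and intestine markers of 10.56, 9.48 and 7.54 at these 3 ages. DNA replication genes had medians of 9.01 in L4 larvae, 11.01 in Day 6 adults and 11.28 in Day 15 adults. Single genes also parted after Day 6: *sysm-1* averaged 8.76 in L4 larvae, 11.36 in Day 6 adults and 2.04 in Day 15 adults, whereas *ilys-3* averaged 3.06 in L4 larvae, 10.44 in Day 6 adults and 12.50 in Day 15 adults.

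**Figure D5:**
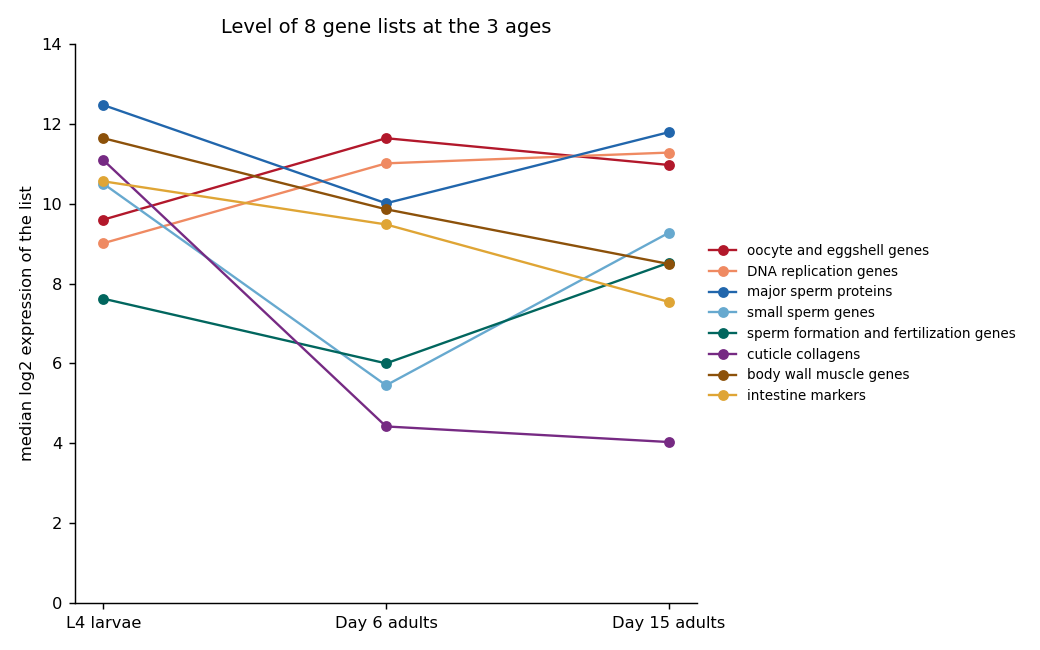
Median log2 level of 8 gene lists (vertical axis) in L4 larvae, Day 6 adults and Day 15 adults, with 1 point per list and age joined by lines. Sperm lists dip at Day 6, cuticle collagens drop between L4 and Day 6 and stay low, at 4.42 and 4.03, and muscle and intestine lists are lower at each later age.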

How the data were processed

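RNA from whole N2 worms was hybridized to Affymetrix *C. elegans* GeneChips by the authors, after amplification of 100 ng with the NuGEN Ovation v2 kit. The deposited values are log2 expression per probe set, made by the authors with GCRMA, which corrects background by probe sequence and normalizes quantiles between arrays. They were used as deposited. The genome build behind the array annotation is not given in the sources used here. Probe sets were named from the platform annotation, with symbols updated through the RefSeq gene table (20701 of 20766 matched), and those naming several genes (887) or none (972, including 77 controls) were left out. A gene was read by its probe set with the highest mean over 9 arrays, and was tested if its mean reached 4 at 1 or more ages. limma 3.58.1 in R 4.3.3 was fitted to all 9 arrays in 3 groups (6 residual degrees of freedom). P-values were adjusted by Benjamini-Hochberg over 11758 genes, and calls needed an adjusted p under 0.05 and a 2-fold change. GCRMA assumes like distributions in all arrays, so a shift shared by most genes would not be seen. Precision is limited by having 3 arrays a group.

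Genes named were the 15 greatest changes in each direction and the leading members of each list, with a few named in the study's methods. The members and lists were chosen with earlier results of these data known. Settings varied were the normalization, filter, probe set rule, test, replicate block and each array left out. Promoter sequences were not analysed here, and 1 named gene is not reported here. The procedure was tested on simulated data.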

Additional observations from a re-analysis of the deposited data

How the results depend on the processing

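The 2 counts stayed within 1.5 times their value under every setting but 1: at a 4-fold threshold 1543 genes were higher and 1839 lower, so that decreases then outnumbered increases. Leaving out each array in turn gave 3176 to 3585 higher and 2749 to 3182 lower. Whether equal replicate numbers mark the same population is not stated in the sources. Deviations from the group means correlated at 0.023, 0.070 and -0.011 for same-number arrays, within the range for other pairs (-0.083 to 0.092). These values show no shared effect but cannot settle the pairing. With the replicate as a block 3443 genes were higher and 2895 lower, of which 3422 and 2886 were the same genes. Centring each array on its median moved the median change of all genes to 0.37, from 0.17, and gave 3949 higher and 2617 lower. The cause was not tested. Of 327 named genes called, 277 kept the call under every alternative. *sek-1* turned from -0.07 to 1.29 when probe sets that can match several transcripts were left out, since another probe set then read it. The methods' t-test after Benjamini-Hochberg called 2740 higher and 2431 lower and lost 31 named calls, among them those of *nos-2*, *puf-5*, *oma-2*, *pcn-1*, *cyb-3*, *col-143*, *nhr-23*, *myo-1*, *myo-2* and *cpb-1*. 12 named calls were lost in it without adjustment. Folds of genes near the floor of the array are lower bounds. Levels near its top, such as those of *vit-2* and *vit-6*, may be compressed to an unknown extent, which was not tested.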

Other observations

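Several families outside the lists above were picked by their shared name after their values were seen, and are given as a description. Their counts stand beside 29.2% higher and 24.6% lower over all genes tested. Of 30 bath genes, which encode proteins with BTB and MATH domains that can act as adaptors of ubiquitin ligases, 26 were higher in Day 6 adults and 1 was lower (median 1.71). Of 18 skr genes, relatives of the Skp1 subunit of such ligases, 14 were higher and none was lower (median 1.89). Nucleoporin genes (npp) gave 15 of 25 higher and none lower, with a median of 1.05, and 20 higher without L4 replicate 2. Autophagy genes with atg names gave 7 of 12 higher and none lower (median 1.44), and pals genes, a family known for induction by intracellular pathogens, gave 8 of 14 higher and none lower (median 1.41). In the other direction, 12 of 16 nep genes, for neprilysin-like metallopeptidases, were lower and none was higher (median -2.15), and 9 of 12 dbd genes were lower and 1 was higher (median -4.91).

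By chromosome, the share of tested genes called higher ran from 27.2% on chromosome IV to 30.5% on chromosome I. The share called lower varied more. It was 18% on chromosome III and 21.1% on chromosome I, against 28.7% on chromosome IV and 28.1% on the X chromosome. None of 7 tested mitochondrial genes was called.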
